A study of Danio rerio with 20 samples.

Results

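The heart genes described here were 10 gene symbols of heart muscle and its hormones: the natriuretic peptide genes nppa and nppb, the myosin genes myl7, myh6 and myh7, the troponin genes tnnt2a and tnni1b, the transcription factor genes nkx2.5 and hand2, and the calcium pump gene atp2a2a. They were chosen by name, with earlier results of these data known, and matched 14 of the 32520 gene IDs in the deposited count table. Of these IDs, 12 had enough reads for the test across all genes, and nppb and 1 of the 2 IDs listed as TNNI1 did not. RNA came from whole larvae. All were of the zebrafish line Tg(fli1:EGFP), in which the fli1 promoter drives green fluorescent protein in endothelial cells, and all 4 genotypes carry this transgene. DKO larvae lack both glo1 and aldh3a1, which were removed with CRISPR/Cas9. ALDH3A1KO larvae lack aldh3a1, GLO1KO larvae lack glo1, and WT larvae have neither knockout. Each genotype had 5 libraries, 20 in all. Larval age, the mutant alleles and how many larvae made up a library are not stated in the labels. No label says that the libraries of a genotype came from separate clutches, so a p-value here measures the spread among libraries alone, and that spread may be technical.

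The zebrafish heart has 1 atrium and 1 ventricle. Atrial and ventricular muscle cells both carry the regulatory light chain made by myl7, and they differ in their myosin heavy chains, with an atrial form from myh6 and a ventricular form long known as vmhc, an older name of myh7. Natriuretic peptides are hormones that heart muscle cells release. They act through receptors with guanylate cyclase activity, which make cyclic GMP, and nppa is widely used as a marker of chamber muscle and of load on the heart. The transcription factors Nkx2.5 and Hand2 act early in the building of the heart.

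Each library held between 35092716 and 37190519 counts. Levels are given as CPM, counts scaled to library size, here with TMM factors. They are not divided by gene length, so levels are not compared between genes. Targeted glo1 was at 3.38 to 5.35 CPM in DKO and 3.28 to 4.22 CPM in GLO1KO libraries, against 74.9 to 81.7 CPM in ALDH3A1KO and 62.2 to 71.4 CPM in WT libraries. No gene ID was matched to aldh3a1, so its loss was not checked here. In RNA from whole larvae, fewer heart cells and less RNA per heart cell cannot be told apart. In 8 of the 14 gene IDs, WT replicates 1 and 2 were the 2 highest of the 5 WT libraries. How often this holds over all genes was not counted. Calls against WT of the genes named here that were lost without those 2 libraries are given beside the gene or list they belong to. These libraries were picked after their levels were seen. Where they are the highest, leaving them out lowers the WT mean. A smaller change or a lost call is then partly fixed by that choice, and fewer WT libraries remain.

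The gene for atrial natriuretic peptide, nppa (ENSDARG00000052960), was lower in every knockout library than in any WT library. Its level was 0.577, 0.779, 0.831, 0.656 and 0.731 CPM in DKO libraries, against 1.98, 1.93, 1.52, 1.25 and 2.03 CPM in WT libraries. ALDH3A1KO libraries had 0.311, 0.533, 0.659, 0.379 and 0.420 CPM. GLO1KO libraries had 0.556, 1.18, 0.712, 0.476 and 0.520 CPM, and the highest of these, replicate 2, lay just under the lowest WT library. ALDH3A1KO was thus lowest in mean (0.461 ± 0.137 CPM), followed by GLO1KO (0.689 ± 0.288 CPM), DKO (0.715 ± 0.100 CPM) and WT (1.74 ± 0.343 CPM; SD, n = 5 each), and the 3 knockout genotypes overlapped each other.

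These nppa levels rest on few reads. The libraries held 20 to 28 nppa counts in DKO, 11 to 24 in ALDH3A1KO and 17 to 42 in GLO1KO, against 48 to 82 in WT. The exact 95% interval for counting error alone ran from 30.3 to 56.8 counts for the highest GLO1KO library and from 35.4 to 63.6 counts for the lowest WT library, so that pair is not separated by counting error. By genotype, nppa fell to 41.1% of the WT level in DKO (log2 fold change -1.28, SE 0.25, edgeR adjusted p = 0.000139). It fell to 26.6% in ALDH3A1KO (-1.91, SE 0.26, edgeR adjusted p = 8.68e-07) and to 39.6% in GLO1KO (-1.34, SE 0.25, edgeR adjusted p = 0.000311). All 3 comparisons share the WT libraries. Among the 22234 genes tested, 5.47% had a lower log2 fold change than nppa in DKO, 2.72% in ALDH3A1KO and 1.24% in GLO1KO. Without WT replicates 1 and 2 the DKO value for nppa was -1.15 (edgeR adjusted p = 0.00322).

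**Figure D1:**
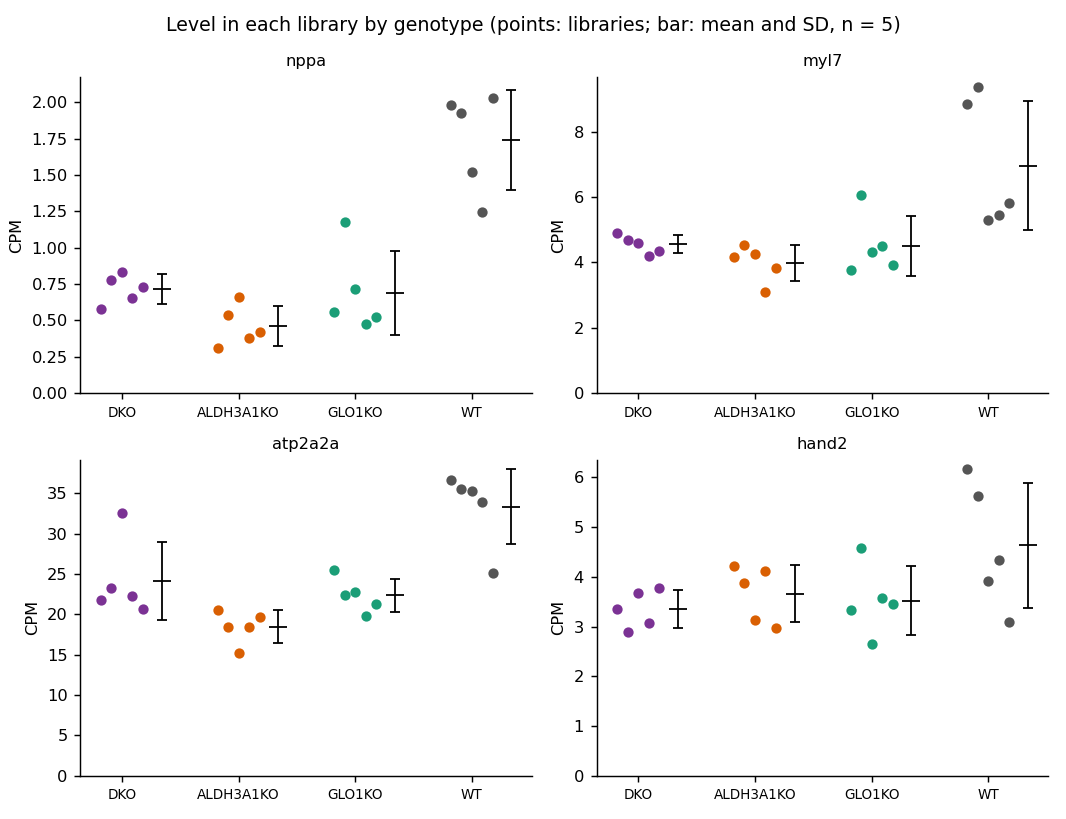
Level in CPM (vertical axis of each panel, from 0) of nppa, myl7, atp2a2a and hand2 in the 5 libraries of DKO, ALDH3A1KO, GLO1KO and WT larvae, with the mean and SD beside the points. All 15 knockout libraries lie below the 5 WT libraries for nppa, with 0.311 to 1.18 CPM against 1.25 to 2.03 CPM, while hand2 overlaps between every knockout genotype and WT.

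The myosin light chain gene myl7 (ENSDARG00000019096), a general marker of heart muscle, was also lower, by less than nppa. It had 4.91, 4.67, 4.60, 4.21 and 4.36 CPM in DKO libraries, against 8.84, 9.36, 5.29, 5.46 and 5.82 CPM in WT libraries. ALDH3A1KO libraries had 4.16, 4.55, 4.26, 3.09 and 3.81 CPM, and GLO1KO libraries had 3.75, 6.06, 4.30, 4.50 and 3.91 CPM. No DKO or ALDH3A1KO library reached the WT range, whereas GLO1KO replicate 2 lay above 3 of the WT libraries. WT replicates 1 and 2 were far above the other 3 WT libraries. The log2 fold change was -0.61 in DKO (SE 0.16, edgeR adjusted p = 0.00276), -0.81 in ALDH3A1KO (SE 0.16, edgeR adjusted p = 0.000138) and -0.63 in GLO1KO (SE 0.16, edgeR adjusted p = 0.00457). Without WT replicates 1 and 2 it was -0.27 in DKO (edgeR adjusted p = 0.165) and -0.29 in GLO1KO (edgeR adjusted p = 0.183), and neither passed. The ALDH3A1KO call held (edgeR adjusted p = 0.0115). Leaving out the 2 highest WT libraries makes the fall smaller by construction.

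Dividing nppa counts by myl7 counts within each library compares the hormone gene with a gene of the same muscle, whatever the library size. On the log2 scale this ratio was -3.09, -2.58, -2.47, -2.68 and -2.58 in DKO libraries, against -2.16, -2.28, -1.80, -2.13 and -1.52 in WT libraries. It was -3.74, -3.09, -2.69, -3.03 and -3.18 in ALDH3A1KO libraries and -2.75, -2.36, -2.59, -3.24 and -2.91 in GLO1KO libraries. Every knockout library had a lower ratio than every WT library, WT replicates 1 and 2 included. The mean difference from WT was -0.70 in DKO, -1.17 in ALDH3A1KO and -0.80 in GLO1KO (two-sided exact permutation test, p = 0.00794 in each, the smallest that 5 against 5 libraries can give, and 0.0397 after Benjamini-Hochberg adjustment over the 15 ratio tests made). DKO exceeded ALDH3A1KO by 0.47 in this ratio, which did not pass after adjustment (exact permutation p = 0.0317, adjusted p = 0.119).

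**Figure D2:**
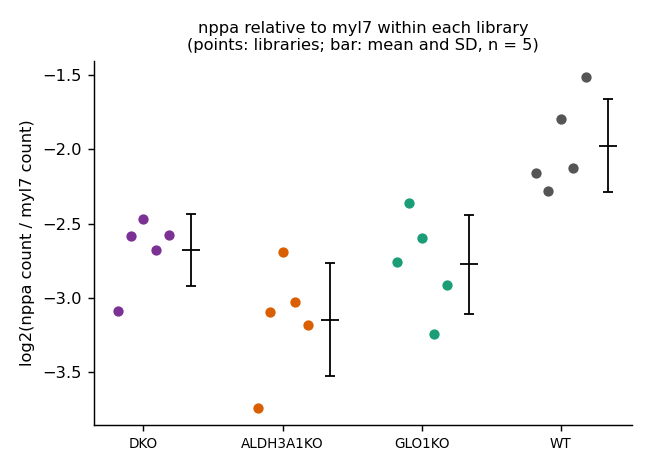
The log2 ratio of nppa to myl7 counts within each library (vertical axis), for the 5 libraries of DKO, ALDH3A1KO, GLO1KO and WT larvae, with the mean and SD beside the points. The highest knockout value, -2.36 in GLO1KO, lies below the lowest WT value, -2.28.

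B-type natriuretic peptide, made by nppb (ENSDARG00000052958), was at the edge of detection and showed no such pattern. It had 0, 4, 13, 8 and 5 counts in DKO libraries, against 14, 2, 0, 6 and 4 in WT libraries. ALDH3A1KO libraries had 4, 5, 3, 6 and 7 counts and GLO1KO libraries had 6, 9, 8, 6 and 10. The genotypes overlapped throughout. A count of 0 allows up to 3 counts in those libraries, or 0.0839 CPM of the unscaled total in DKO replicate 1. In a fit without the filter on low counts the log2 fold change from WT was 0.41 in DKO, 0.10 in ALDH3A1KO and 0.70 in GLO1KO (edgeR adjusted p = 0.661, 0.938 and 0.468), so a change was not detectable at this depth. The RefSeq table for assembly GRCz12tu lists nppb directly beside nppa, between nppal and nppa.

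The other genes of the natriuretic system did not move together. Of 12 tested IDs of peptides, receptors, converting enzymes and cyclic GMP-dependent kinases, 3 rose and 4 fell in DKO, 3 rose and 6 fell in ALDH3A1KO, and 2 rose and 3 fell in GLO1KO. Of all 22234 tested genes, 23.9% rose and 26.4% fell in DKO, 29.4% rose and 32.0% fell in ALDH3A1KO, and 14.6% rose and 18.1% fell in GLO1KO, so 3 and 4 of 12 in DKO lie close to the share over all genes. In DKO 1 rose and 2 fell without WT replicates 1 and 2, and in GLO1KO 1 rose and 2 fell. That fit called 40.9% of all tested genes in DKO and 19.7% in GLO1KO. Scaling by library totals alone moved the median log2 fold change of all tested genes to -0.14 in DKO, -0.11 in ALDH3A1KO and -0.11 in GLO1KO. That scaling gave 1 higher and 4 lower in DKO, as did upper-quartile factors, and 1 higher and 3 lower in GLO1KO. All-gene counts with library totals alone are given below, beside the chamber identity genes. With TMM scaling the median log2 fold change of the 12 IDs was 0.06 in DKO, -0.19 in ALDH3A1KO and 0.09 in GLO1KO. That of all tested genes was 0.01, -0.00 and -0.01.

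The genes npr1a and npr1b, each for a receptor of atrial natriuretic peptide, were lower in all 3 knockout genotypes. They were named for their small adjusted p, and the receptor genes npr2 and NPR3 of this list are not described here. The receptor gene npr1a averaged 4.66 ± 0.476 CPM in DKO, 4.33 ± 0.478 in ALDH3A1KO and 4.28 ± 0.383 in GLO1KO, against 6.36 ± 0.549 in WT (SD, n = 5 each). Its lowest WT library, at 5.38 CPM, lay above the highest knockout library, at 5.25 CPM. The log2 fold change of npr1a was -0.45 (SE 0.11), -0.55 (SE 0.11) and -0.57 (SE 0.11) in that order of knockouts (edgeR adjusted p = 0.00175, 0.000152 and 0.000523). Its paralog npr1b averaged 6.42 ± 0.995 CPM in DKO, 5.77 ± 0.607 in ALDH3A1KO and 5.73 ± 0.892 in GLO1KO, against 8.99 ± 1.46 in WT (SD, n = 5 each), with edgeR adjusted p = 0.00355, 0.000191 and 0.000722. The npr1b call in DKO was lost without WT replicates 1 and 2 (-0.36, edgeR adjusted p = 0.0577), and no other call of npr1a or npr1b against WT was.

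Further along this pathway, prkg1a, a cyclic GMP-dependent kinase gene, fell in DKO (-0.69, SE 0.24, edgeR adjusted p = 0.0174) and in ALDH3A1KO (-1.29, SE 0.24, edgeR adjusted p = 6.44e-05). The DKO call was lost without WT replicates 1 and 2 (-0.66, edgeR adjusted p = 0.0622). In GLO1KO it was at -0.41 (SE 0.23, edgeR adjusted p = 0.180). A C-type peptide gene, nppcl, rose in ALDH3A1KO, to 14.3 ± 1.40 CPM against 8.33 ± 1.28 in WT (SD, n = 5 each; 0.78, SE 0.10, edgeR adjusted p = 3.03e-07). In DKO it was 0.16 (edgeR adjusted p = 0.199) and in GLO1KO 0.11 (edgeR adjusted p = 0.442). Another pair was named after its values were seen. CORIN, whose protease activates the atrial peptide in mammals, averaged 1.92 ± 0.383 CPM in DKO, 2.18 ± 0.258 in ALDH3A1KO and 2.46 ± 0.415 in GLO1KO, against 3.48 ± 0.964 in WT (SD, n = 5 each), and passed the test in each (edgeR adjusted p = 0.000501, 0.00293 and 0.0371). Its calls in ALDH3A1KO (-0.47, edgeR adjusted p = 0.0587) and GLO1KO (-0.30, edgeR adjusted p = 0.319) were lost without WT replicates 1 and 2. The other C-type peptide gene, nppc, went the opposite way, with 7.82 ± 0.718 CPM in DKO, 7.06 ± 0.909 in ALDH3A1KO and 6.93 ± 0.839 in GLO1KO, against 5.16 ± 0.853 in WT (SD, n = 5 each; edgeR adjusted p = 0.000224, 0.00238 and 0.00930).

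The myosin heavy chain genes cannot be assigned to a chamber from the names at hand. The name table lists 3 IDs as myh6 in either case, and lists 1 as MYH7. The RefSeq table gives vmhc as a synonym of myh7, but gives MYH7 as a synonym of smyhc2, a slow muscle myosin gene. Near-identical myosins can also share reads. Each row is therefore described by its ID.

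The ID listed in lower case as myh6, ENSDARG00000090637, had 11, 23, 8, 10 and 20 counts in DKO libraries, against 23, 24, 18, 12 and 23 in WT libraries. ALDH3A1KO libraries had 8, 8, 10, 10 and 3 counts, all below WT, and GLO1KO libraries had 30, 13, 12, 28 and 21. It fell to 43.9% of the WT level in ALDH3A1KO (log2 fold change -1.19, SE 0.37, edgeR adjusted p = 0.00797). Without WT replicates 1 and 2 that call was lost (-1.01, edgeR adjusted p = 0.0587). DKO, at -0.28 (SE 0.35), and GLO1KO, at 0.18 (SE 0.33), did not pass.

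The next, ENSDARG00000079564, had the smallest spread among WT libraries of the 14 IDs, with a coefficient of variation of 5.24%. It had 76.0, 64.6, 89.2, 75.1 and 83.8 CPM in DKO libraries, against 75.9, 77.0, 78.0, 72.4 and 68.5 CPM in WT libraries. GLO1KO libraries lay at 69.2 to 79.5 CPM, so that DKO, GLO1KO and WT overlapped. In ALDH3A1KO it was lower, at 59.1 to 70.9 CPM, a fall to 84.7% of WT (log2 fold change -0.24, SE 0.07, edgeR adjusted p = 0.00502). The log2 fold change was 0.06 (SE 0.07) in DKO and 0.00 (SE 0.07) in GLO1KO, which did not pass, and the DKO value was -0.09 when library totals alone were used for scaling.

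The remaining ID listed as MYH6, ENSDARG00000114031, was lower in all 3 knockout genotypes, with wide spread. It had 3.03, 3.38, 3.95, 3.55 and 2.34 CPM in DKO libraries, against 6.17, 7.48, 8.27, 4.39 and 3.54 CPM in WT libraries. ALDH3A1KO libraries had 2.26, 3.87, 1.46, 1.20 and 1.50 CPM, and GLO1KO libraries had 3.97, 0.926, 1.11, 1.26 and 1.83 CPM. In each knockout genotype at least 1 library reached the lowest WT library. The log2 fold change was -1.71 in GLO1KO (SE 0.37, edgeR adjusted p = 0.00198) and -1.53 in ALDH3A1KO (SE 0.37, edgeR adjusted p = 0.00137). In DKO it was -0.88 (SE 0.35, edgeR adjusted p = 0.0468), a call that was lost in 8 of 10 fits without 1 library (edgeR adjusted p up to 0.112) and without WT replicates 1 and 2 (-0.72, edgeR adjusted p = 0.189).

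The ID listed as MYH7, ENSDARG00000079782, had 5.40, 4.67, 4.33, 7.04 and 7.89 CPM in DKO libraries, against 8.89, 8.18, 6.23, 4.99 and 5.55 CPM in WT libraries. ALDH3A1KO libraries, at 3.54 to 4.92 CPM, lay below every WT library, and GLO1KO libraries, at 3.92 to 6.18 CPM, overlapped WT. It fell in ALDH3A1KO (-0.67, SE 0.18, edgeR adjusted p = 0.00236), a call that was lost without WT replicates 1 and 2 (-0.39, edgeR adjusted p = 0.0813). DKO (-0.21, SE 0.18) and GLO1KO (-0.38, SE 0.18, edgeR adjusted p = 0.100) did not pass.

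**Figure D3:**
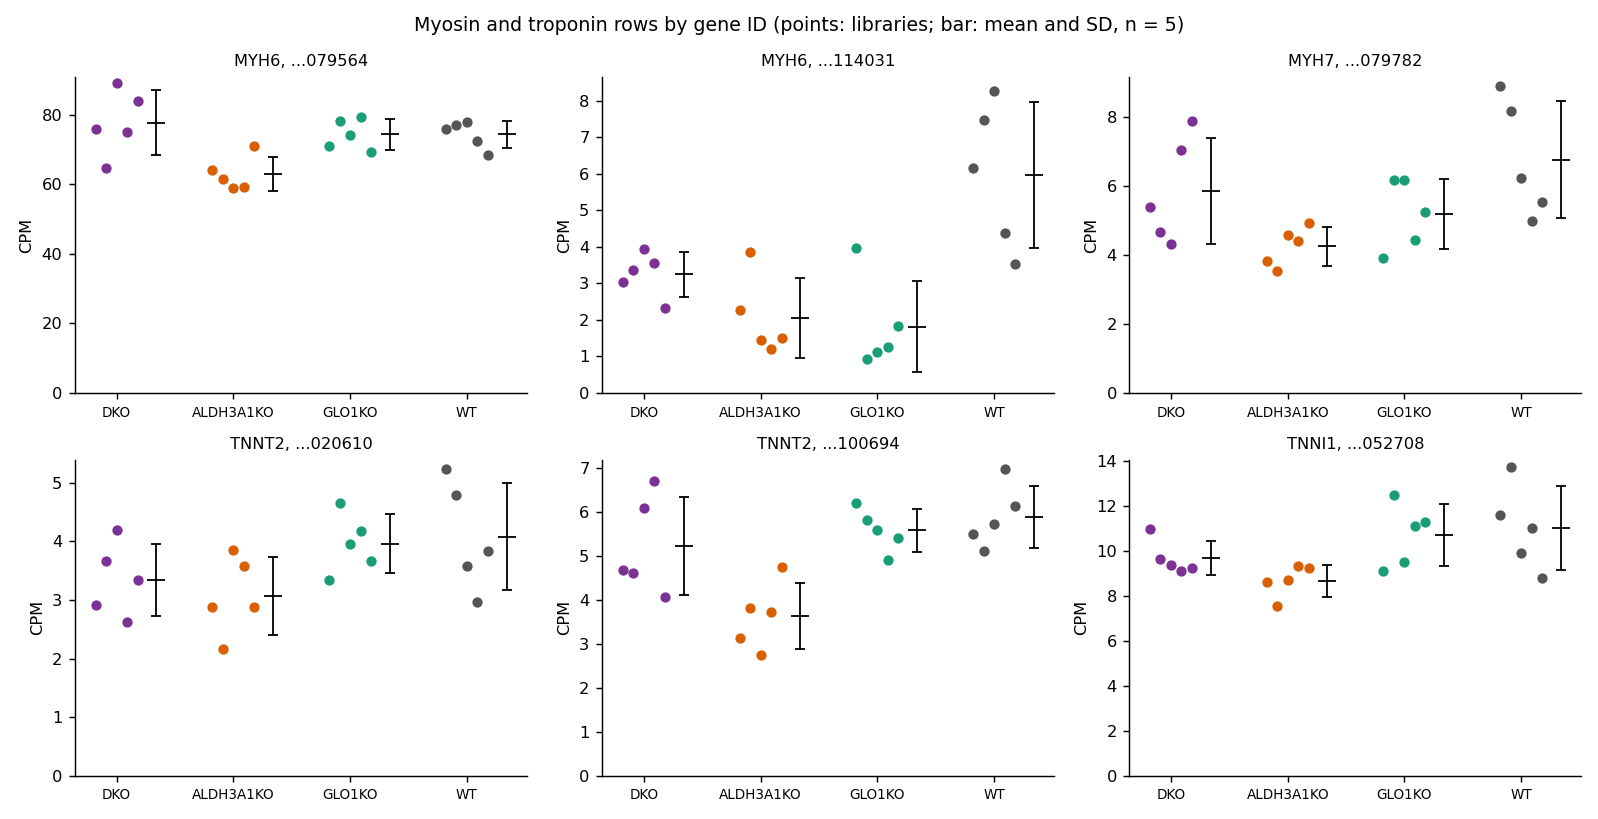
Level in CPM (vertical axis of each panel, from 0) of 6 myosin and troponin rows, each titled by its listed symbol and the last 6 digits of its gene ID, in the 5 libraries of DKO, ALDH3A1KO, GLO1KO and WT larvae, with the mean and SD beside the points. ALDH3A1KO is lowest in mean in all panels but that of ENSDARG00000114031, where GLO1KO is lowest (1.82 CPM).

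For the comparison of atrium with ventricle, the ratio of the lower-case myh6 row to the MYH7 row was taken within each library, with the limit on names just given. Its mean on the log2 scale was -3.88 ± 0.661 in DKO, -4.36 ± 0.792 in ALDH3A1KO and -3.24 ± 0.886 in GLO1KO, against -3.73 ± 0.279 in WT (SD, n = 5 each). The smallest p was that of ALDH3A1KO, with a difference of -0.63 from WT (two-sided exact permutation p = 0.0397, adjusted p = 0.119). It narrowed to -0.28 when 1 library was left out. None of the 5 comparisons passed, nor did any of the 5 for myh6 over myl7, where the difference from WT was 0.21 in DKO, -0.50 in ALDH3A1KO and 0.73 in GLO1KO (adjusted p from the exact permutation test 0.614, 0.342 and 0.278). This myh6 row had 3 to 30 counts in a library, and the size of difference that could be detected was not computed. As the names do not assign these rows to a chamber, the ratios do not decide whether atrium and ventricle shifted.

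Of the thin filament genes, troponin T holds the troponin complex on tropomyosin and troponin I blocks contraction at low calcium. The name tnnt2a matched 2 IDs listed as TNNT2, by a synonym, and the names do not tell which of them is tnnt2a. ENSDARG00000100694 had 4.68, 4.62, 6.09, 6.71 and 4.06 CPM in DKO libraries, against 5.49, 5.12, 5.73, 6.97 and 6.14 CPM in WT libraries. ALDH3A1KO libraries had 3.14, 3.82, 2.75, 3.73 and 4.74 CPM, all below WT, and GLO1KO libraries had 4.90 to 6.20 CPM. Only ALDH3A1KO passed against WT (-0.70, SE 0.15, edgeR adjusted p = 0.000241), and it was also below DKO (DKO over ALDH3A1KO 0.53, SE 0.15, edgeR adjusted p = 0.0120). The other, ENSDARG00000020610, averaged 3.34 ± 0.615 CPM in DKO, 3.07 ± 0.664 in ALDH3A1KO and 3.96 ± 0.503 in GLO1KO, against 4.08 ± 0.918 in WT (SD, n = 5 each). Its ALDH3A1KO call (-0.41, SE 0.17, edgeR adjusted p = 0.0406) was lost in 5 of 10 fits without 1 library, and without WT replicates 1 and 2 the value was -0.17 (edgeR adjusted p = 0.465).

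The name tnni1b matched 2 IDs listed as TNNI1, by its stem, and the names do not tell which of them is tnni1b. ENSDARG00000052708 averaged 9.68 ± 0.759 CPM in DKO, 8.69 ± 0.711 in ALDH3A1KO and 10.7 ± 1.38 in GLO1KO, against 11.0 ± 1.87 in WT (SD, n = 5 each). It fell in ALDH3A1KO (-0.34, SE 0.11, edgeR adjusted p = 0.00873), and that call was lost without WT replicates 1 and 2 (-0.19, edgeR adjusted p = 0.177). ENSDARG00000000474 had 2 to 21 counts in a library and was not in the test across all genes. In a fit without the filter on low counts, DKO over ALDH3A1KO was 0.59 for this ID and did not pass (edgeR adjusted p = 0.476).

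Among the transcription factor genes, hand2 (ENSDARG00000008305) had 3.35, 2.88, 3.68, 3.07 and 3.77 CPM in DKO libraries, against 6.17, 5.63, 3.93, 4.34 and 3.10 CPM in WT libraries. ALDH3A1KO libraries lay at 2.97 to 4.22 CPM and GLO1KO libraries at 2.65 to 4.58 CPM. All genotypes overlapped, and WT had the widest spread. It passed the test in DKO (-0.47, SE 0.17, edgeR adjusted p = 0.0257), but not in ALDH3A1KO (-0.34, SE 0.17, edgeR adjusted p = 0.0862) or GLO1KO (-0.40, SE 0.17, edgeR adjusted p = 0.0750), and the DKO call was lost in 4 of 10 fits without 1 library and without WT replicates 1 and 2 (-0.16, edgeR adjusted p = 0.489).

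The homeobox gene nkx2.5 (ENSDARG00000018004) had 2, 13, 9, 17 and 11 counts in DKO libraries, against 25, 25, 13, 12 and 12 in WT libraries. ALDH3A1KO libraries had 23, 8, 20, 10 and 13 counts and GLO1KO libraries had 15, 7, 2, 8 and 12. It passed in no comparison, with log2 fold changes from WT of -0.54 (SE 0.44), -0.08 (SE 0.42) and -0.85 (SE 0.45) in DKO, ALDH3A1KO and GLO1KO.

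**Figure D4:**
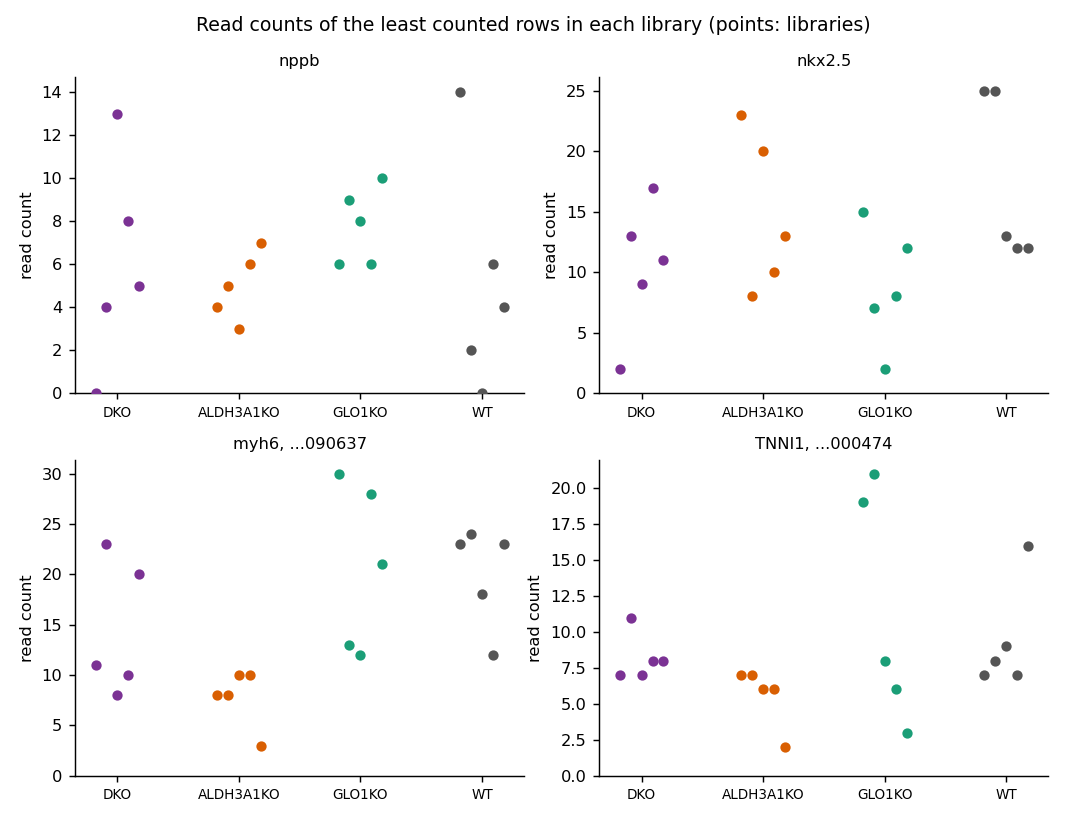
Read counts per library (vertical axis of each panel, from 0) of the 4 least counted rows, nppb, nkx2.5, the lower-case myh6 row and the TNNI1 row ENSDARG00000000474, in DKO, ALDH3A1KO, GLO1KO and WT larvae. The panels of nppb and nkx2.5 show overlap among all genotypes, while ALDH3A1KO lies below GLO1KO and WT for myh6 (3 to 10 against 12 to 30 and 12 to 24 counts). For the TNNI1 row ALDH3A1KO (2 to 7 counts) meets DKO (7 to 11 counts) at 7 counts.

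The calcium pump gene atp2a2a (ENSDARG00000029439) encodes SERCA2, which returns calcium to the store after each beat. It had 21.8, 23.3, 32.6, 22.3 and 20.7 CPM in DKO libraries, against 36.7, 35.6, 35.3, 33.9 and 25.2 CPM in WT libraries. ALDH3A1KO libraries had 20.6, 18.5, 15.2, 18.5 and 19.7 CPM and GLO1KO libraries had 25.5, 22.3, 22.8, 19.9 and 21.3 CPM. ALDH3A1KO lay below all WT libraries. DKO and GLO1KO met the WT range only through DKO replicate 3, GLO1KO replicate 1 and WT replicate 5. The log2 fold change was -0.47 in DKO (SE 0.11, edgeR adjusted p = 0.00178), -0.85 in ALDH3A1KO (SE 0.12, edgeR adjusted p = 1.43e-06) and -0.58 in GLO1KO (SE 0.12, edgeR adjusted p = 0.000714). Without WT replicates 1 and 2 the DKO value was -0.37 and passed (edgeR adjusted p = 0.0330). SERCA2 also works in slow skeletal muscle, so this level is not that of the heart alone.

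The 12 tested IDs include myosin and troponin rows whose names do not tell which paralog they are. Counted together, 0 of the 12 rose and 5 fell in DKO against WT. Over all tested genes 23.9% rose, 26.4% fell and 50.3% were called in either direction. In ALDH3A1KO 0 rose and 10 fell, where 29.4% of tested genes rose, 32.0% fell and 61.3% were called. In GLO1KO 0 rose and 4 fell, where 14.6% of tested genes rose, 18.1% fell and 32.8% were called. All libraries of the knockout lay below all WT libraries for 2 of the 12 IDs in DKO, where this held for 19.2% of tested genes, for 6 in ALDH3A1KO (23.1% of tested genes) and for 1 in GLO1KO, nppa (12.5% of tested genes). The median log2 fold change of the 12 IDs was -0.38, -0.68 and -0.39 in DKO, ALDH3A1KO and GLO1KO, against 0.01, -0.00 and -0.01 for all tested genes. The 4 IDs that fell in all 3 comparisons were those of nppa, myl7, atp2a2a and ENSDARG00000114031. These comparisons share the WT libraries, and the share of all tested genes that fell in all 3 was not counted. Without WT replicates 1 and 2 the counts were 2 in DKO, where 40.9% of all tested genes were called, 6 in ALDH3A1KO (53.1%) and 3 in GLO1KO (19.7%). The 2 left in DKO were nppa and atp2a2a.

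**Figure D5:**
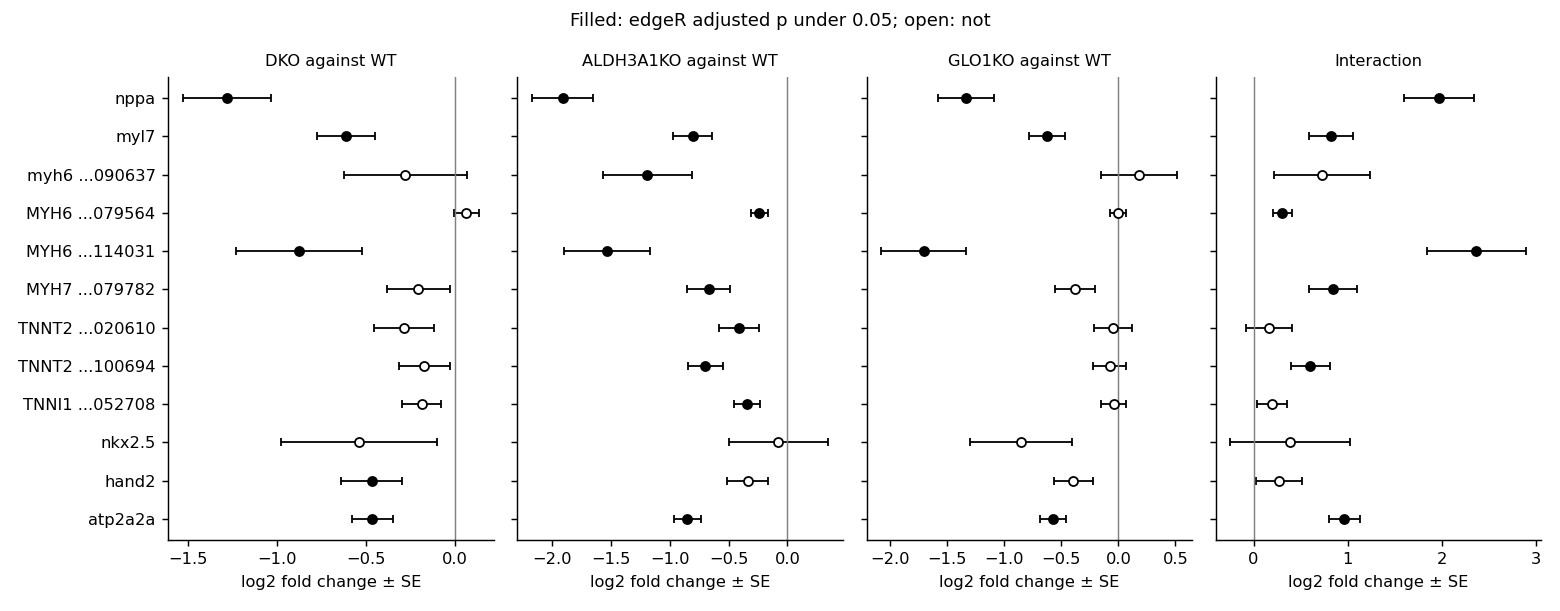
Log2 fold change with its SE (horizontal axis) of the 12 tested gene IDs, 1 per row, in DKO, ALDH3A1KO and GLO1KO against WT and for the interaction term; filled points passed an edgeR adjusted p of 0.05. The row of nppa lies at -1.28, -1.91 and -1.34 in the 3 knockouts and at 1.96 in the interaction.

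Setting the double knockout against each single one, DKO was higher than ALDH3A1KO in 3 of the 12 IDs and lower in 0, where 11.1% of tested genes were higher and 22.7% called in either direction. The 3 were ENSDARG00000079564 (log2 fold change 0.30, SE 0.07, edgeR adjusted p = 0.00295), ENSDARG00000100694 and atp2a2a (0.39, SE 0.12, edgeR adjusted p = 0.0190). The atp2a2a call was lost with limma-voom (0.30, limma adjusted p = 0.0705), without DKO replicate 3 (0.27, edgeR adjusted p = 0.0639) and without ALDH3A1KO replicate 3 (0.32, edgeR adjusted p = 0.0594), and that of ENSDARG00000100694 without DKO replicate 4 (0.42, edgeR adjusted p = 0.0506). The nppa difference, 0.63 (SE 0.28), did not pass (edgeR adjusted p = 0.107). DKO and GLO1KO differed in 0 of the 12 IDs by edgeR, where 11.3% of tested genes were called. At an unadjusted p under 0.05 there was 1, ENSDARG00000114031 (0.83, SE 0.38), which limma-voom called and DESeq2 did not.

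The interaction term asks whether the DKO level departs from the sum of both single-knockout changes on the log2 scale. It was called above 0 in 7 of the 12 IDs and below 0 in 0, where 18.7% of tested genes were called above 0 and 35.6% in either direction. For nppa it was 1.96 (SE 0.37, edgeR adjusted p = 0.000347), which puts DKO at 389.8% of the level that sum would give. It was 0.96 for atp2a2a (SE 0.16, edgeR adjusted p = 0.000160), 0.82 for myl7 (SE 0.23, edgeR adjusted p = 0.00801) and 2.36 for ENSDARG00000114031 (SE 0.53, edgeR adjusted p = 0.00228). ENSDARG00000079782 (0.85), ENSDARG00000100694 (0.60) and ENSDARG00000079564 (0.30) also passed. The WT level enters this term too, and without WT replicates 1 and 2 there were 4, where 26.8% of all tested genes were called, with myl7 at 0.49 (edgeR adjusted p = 0.0734), ENSDARG00000079782 at 0.57 (edgeR adjusted p = 0.0872) and ENSDARG00000079564 at 0.28 (edgeR adjusted p = 0.0640) no longer called. The call of ENSDARG00000100694 was lost in 3 of 20 fits without 1 library, with edgeR adjusted p = 0.0614 without DKO replicate 4, 0.0520 without ALDH3A1KO replicate 3 and 0.0533 without WT replicate 4.

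Genes that mark the chambers in the embryonic heart moved both ways, and their counts depended on the scaling. Of 12 tested IDs of ventricular and atrial identity genes, 5 rose and 1 fell in DKO, 6 rose and 2 fell in ALDH3A1KO, and 3 rose and 0 fell in GLO1KO, with median log2 fold changes of 0.19, 0.28 and 0.13. With library totals alone, 3 rose and 3 fell in DKO and 0 rose and 1 fell in GLO1KO. Over all tested genes that scaling gave 2532 higher and 8173 lower in DKO, 4667 higher and 8306 lower in ALDH3A1KO, and 1607 higher and 5739 lower in GLO1KO. With TMM scaling, 23.9% of all tested genes rose and 26.4% fell in DKO, 29.4% and 32.0% in ALDH3A1KO, and 14.6% and 18.1% in GLO1KO. IRX4, listed for the ventricle, rose in ALDH3A1KO to 26.5 ± 1.27 CPM, against 17.0 ± 1.53 CPM in WT (SD, n = 5 each; log2 fold change 0.64, SE 0.09, edgeR adjusted p = 1.00e-06). Both IDs listed as NR2F1, a factor of atrial identity, rose in all 3 knockouts with TMM scaling, with log2 fold changes of 0.45, 0.65 and 0.34 for ENSDARG00000017168 and 0.33, 0.37 and 0.22 for ENSDARG00000052695 in DKO, ALDH3A1KO and GLO1KO. The ID ENSDARG00000101831, listed as IRX1, rose in DKO (0.31, SE 0.07) and ALDH3A1KO (0.46, SE 0.07), and the other ID listed as IRX1 is not described here. These factors are also made in the nervous system, and in whole larvae their levels are not those of the heart.

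Among other heart muscle genes, the sarcomere list moved most in ALDH3A1KO. Of its 26 tested IDs, 2 rose and 9 fell in DKO, 0 rose and 22 fell in ALDH3A1KO, and 3 rose and 7 fell in GLO1KO, with median log2 fold changes of -0.18, -0.92 and -0.14. In GLO1KO 3 rose and 3 fell without WT replicates 1 and 2, where 19.7% of all tested genes were called. With library totals alone 1 rose and 13 fell in DKO and 2 rose and 11 fell in GLO1KO. More of all tested genes also fell with that scaling, as counted above beside the chamber identity genes. Of all tested genes with TMM scaling, 23.9% rose and 26.4% fell in DKO, 29.4% and 32.0% in ALDH3A1KO, and 14.6% and 18.1% in GLO1KO. VCL (ENSDARG00000044968), for vinculin, averaged 8.56 ± 1.50 CPM in DKO, 5.16 ± 0.348 in ALDH3A1KO and 11.8 ± 1.84 in GLO1KO, against 19.4 ± 3.64 in WT (SD, n = 5 each). The other ID listed as VCL is not described here. The giant scaffold gene obscnb fell by 2.0, 3.42 and 1.33 on the log2 scale, and cmya5 by 1.06, 1.88 and 0.50, in DKO, ALDH3A1KO and GLO1KO, and without WT replicates 1 and 2 the cmya5 call in GLO1KO was lost (-0.36, edgeR adjusted p = 0.0868). The Z-disc gene ldb3a fell in DKO (-0.39, SE 0.08) and ALDH3A1KO (-0.90, SE 0.08), and was at -0.17 (edgeR adjusted p = 0.0776) in GLO1KO. The cardiac actin gene actc1a, named after its values were seen, went the other way in GLO1KO. It averaged 108 ± 17.0 CPM in DKO, 63.7 ± 18.1 in ALDH3A1KO and 210 ± 28.4 in GLO1KO, against 118 ± 17.6 in WT (SD, n = 5 each). It rose in GLO1KO (0.84, SE 0.17, edgeR adjusted p = 0.00151), fell in ALDH3A1KO (-0.89, SE 0.17, edgeR adjusted p = 0.000262) and was at -0.13 (edgeR adjusted p = 0.564) in DKO.

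Most of these sarcomere genes are shared with skeletal muscle, and the skeletal list moved in the same genotype. Of 30 tested skeletal muscle IDs, 5 rose and 9 fell in DKO, 1 rose and 25 fell in ALDH3A1KO, and 3 rose and 4 fell in GLO1KO, with median log2 fold changes of -0.24, -0.87 and -0.18. In DKO 4 rose and 4 fell without WT replicates 1 and 2, and in GLO1KO 3 rose and 1 fell. Fewer of all tested genes were called in that fit too, 40.9% in DKO and 19.7% in GLO1KO. With library totals alone, 4 rose and 19 fell in DKO and 2 rose and 10 fell in GLO1KO. That scaling made more of all tested genes fall too, as counted above beside the chamber identity genes. In GLO1KO 3 rose and 9 fell without WT replicate 5, and 4 rose and 7 fell with limma-voom. All-gene shares for those fits are not given here, so these counts are not read as a result. Among all tested genes with TMM scaling, 23.9% rose and 26.4% fell in DKO, 29.4% and 32.0% in ALDH3A1KO, and 14.6% and 18.1% in GLO1KO. The summed level of the 30 skeletal muscle IDs was 63377 to 83629 CPM in DKO, 34556 to 52168 in ALDH3A1KO and 70699 to 78487 in GLO1KO, against 62821 to 76329 in WT. None of the 5 defining skeletal markers was at 0 in all libraries. RYR1 (ENSDARG00000023797), listed for the skeletal calcium release channel, fell by 1.33, 2.07 and 0.78 on the log2 scale in DKO, ALDH3A1KO and GLO1KO. The other ID listed as RYR1 is not described here. The fast muscle alpha-actinin gene actn3b fell by 0.36 in DKO and 1.18 in ALDH3A1KO, and was at -0.20 in GLO1KO (edgeR adjusted p = 0.156). Its DKO call was lost without WT replicates 1 and 2 (-0.25, edgeR adjusted p = 0.109). NEB passed in ALDH3A1KO alone against WT (-0.87), and TNNI2 (ENSDARG00000013752) rose in ALDH3A1KO (1.41) and DKO (0.76), while 4 of the other 5 IDs listed as TNNI2 fell in ALDH3A1KO. The part of skeletal muscle in the ALDH3A1KO counts was not tested.

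For calcium handling and excitation, 3 of 21 tested IDs rose and 12 fell in DKO, 3 rose and 14 fell in ALDH3A1KO, and 4 rose and 6 fell in GLO1KO. In GLO1KO 1 rose and 5 fell without WT replicates 1 and 2, where 19.7% of all tested genes were called. With library totals alone 1 rose and 13 fell in DKO and 2 rose and 9 fell in GLO1KO. All-gene counts with that scaling stand above, beside the chamber identity genes, and more genes fell there than with TMM. The shares of all tested genes with TMM scaling were 23.9% higher and 26.4% lower in DKO, 29.4% and 32.0% in ALDH3A1KO, and 14.6% and 18.1% in GLO1KO. SLC8A1 (ENSDARG00000043406), listed for the sodium-calcium exchanger, averaged 9.61 ± 1.18 CPM in DKO, 10.7 ± 1.97 in ALDH3A1KO and 14.0 ± 2.41 in GLO1KO, against 23.7 ± 1.11 in WT (SD, n = 5 each), and every knockout library lay below WT. Its log2 fold change was -1.30 (SE 0.12), -1.15 (SE 0.12) and -0.75 (SE 0.12), with edgeR adjusted p = 1.26e-08, 1.21e-08 and 5.44e-05. The other ID listed as SLC8A1 is not described here. POPDC2, a membrane protein gene of heart and skeletal muscle, fell by 0.88, 2.30 and 0.69 on the log2 scale. JPH2, which ties the calcium store to the cell membrane, fell by 0.31 in DKO and 1.12 in ALDH3A1KO and was at -0.21 (edgeR adjusted p = 0.0588) in GLO1KO. Its DKO call was lost without WT replicates 1 and 2 (-0.24, edgeR adjusted p = 0.0544). CASQ2, for the calcium-binding protein of the store, fell in ALDH3A1KO (-0.75, SE 0.08) and was at 0.01 in DKO and 0.11 in GLO1KO. RNA came from whole larvae, and the part of skeletal muscle in the levels of this list was not tested.

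Of 21 tested IDs of other heart transcription factors, 8 rose and 9 fell in DKO, 6 rose and 10 fell in ALDH3A1KO, and 3 rose and 7 fell in GLO1KO. In GLO1KO 2 rose and 2 fell without WT replicates 1 and 2, where 19.7% of all tested genes were called. With library totals alone, 4 rose and 10 fell in DKO, 4 rose and 12 fell in ALDH3A1KO, and 1 rose and 9 fell in GLO1KO. Counts of all tested genes with that scaling are given above, beside the chamber identity genes. For all tested genes with TMM scaling, 23.9% rose and 26.4% fell in DKO, 29.4% and 32.0% in ALDH3A1KO, and 14.6% and 18.1% in GLO1KO. ISL1, which marks heart progenitors and also motor neurons, rose by 0.52, 0.86 and 0.32 on the log2 scale in DKO, ALDH3A1KO and GLO1KO. MEF2A fell in each (-0.59, -0.89 and -0.31), and mef2ab fell in DKO (-1.01) and ALDH3A1KO (-1.29). ISL2 (ENSDARG00000003971) rose in DKO (0.36) and ALDH3A1KO (0.48), and the other ID listed as ISL2 is not described here. The MEF2A call in GLO1KO was lost without WT replicates 1 and 2 (-0.34, edgeR adjusted p = 0.0508).

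Of 19 tested IDs of endocardium, valve and epicardium, a list that also holds the blood gene gata1a, 1 rose and 6 fell in DKO, 0 rose and 10 fell in ALDH3A1KO, and 2 rose and 5 fell in GLO1KO. In GLO1KO 2 rose and 2 fell without WT replicates 1 and 2, where 19.7% of all tested genes were called. With library totals alone 0 rose and 6 fell in DKO, and all-gene counts with that scaling are given above, beside the chamber identity genes. The shares over all tested genes with TMM scaling were 23.9% higher and 26.4% lower in DKO, 29.4% and 32.0% in ALDH3A1KO, and 14.6% and 18.1% in GLO1KO. ENSDARG00000031420, listed as the epicardial factor gene wt1, fell by 0.98, 1.87 and 1.19, on 8 to 62 counts in a library. ALDH1A2 fell by 0.35, 0.49 and 0.28 and ALCAM by 0.36, 0.41 and 0.21 in DKO, ALDH3A1KO and GLO1KO. NOTCH1 (ENSDARG00000052094) fell in DKO (-0.52) and ALDH3A1KO (-0.90), and the other ID listed as NOTCH1 is not described here. Lost without WT replicates 1 and 2 were the calls of ENSDARG00000031420 in DKO (-0.78, edgeR adjusted p = 0.0738), ALDH1A2 in GLO1KO (-0.18, edgeR adjusted p = 0.0720) and ALCAM in GLO1KO (-0.17, edgeR adjusted p = 0.171).

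The genes named here for their likeness to nppa and myl7 across the 20 libraries are not known as heart muscle genes. Among 13713 genes with a mean of at least 5 CPM, the highest Pearson r of log2 CPM with nppa was that of sult1st1, a sulfotransferase gene, at 0.90, then UGDH, for UDP-glucose dehydrogenase, at 0.89 and ARHGAP24 at 0.88. Once each genotype's mean was removed, these were 0.55, 0.59 and 0.62. Among the highest for myl7 were UGDH at 0.85 and AGXT2, an aminotransferase gene, at 0.85, and 0.62 and 0.68 with genotype means removed. For the lower-case myh6 row they were SLK at 0.81, RNF126 at 0.78 and LARP1 at 0.78, and 0.67, 0.50 and 0.48 with genotype means removed. The points share libraries and the genotype differences, so these are descriptions. No such genes were sought for nppb, which was too low.

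The summed level of 9 heart muscle marker IDs, which are actc1a and rows described above, was 177 to 247 CPM in DKO, 114 to 163 in ALDH3A1KO and 267 to 340 in GLO1KO, against 199 to 249 in WT. In this sum GLO1KO lay above WT, ALDH3A1KO below it, and DKO overlapped it. Most of the sum comes from actc1a and ENSDARG00000079564. In GLO1KO actc1a rose, nppa, myl7 and ENSDARG00000114031 fell, and the others of the 9 did not pass against WT. Markers of several other organs moved with genotype in the same libraries. The summed level of 3 liver marker IDs was 227 to 337 CPM in DKO, 176 to 352 in ALDH3A1KO and 398 to 557 in GLO1KO, against 648 to 1837 in WT. That of 2 gut IDs was 98.3 to 196 CPM in DKO, 47.8 to 153 in ALDH3A1KO and 145 to 216 in GLO1KO, against 201 to 420 in WT. That of 2 blood IDs was higher, with 53.2 to 69.7 CPM in DKO, 34.7 to 50.1 in ALDH3A1KO and 39.6 to 54.1 in GLO1KO, against 30.0 to 38.1 in WT. The endothelial markers, 3 IDs, overlapped in all genotypes at 70.4 to 91.0 CPM. That of 5 neuron and glia IDs was 1571 to 1836 CPM in DKO, 1878 to 1967 in ALDH3A1KO and 1664 to 1843 in GLO1KO, against 1705 to 1918 in WT, so that ALDH3A1KO lay above DKO and GLO1KO and each knockout overlapped WT. None of these marker IDs was at 0 in all libraries, and their part in the heart results was not tested.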

How the data were processed

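RNA-seq of 20 libraries, 5 each of DKO, ALDH3A1KO, GLO1KO and WT larvae, was analysed from the raw counts per gene that the authors deposited. Per the labels' protocols, libraries were of the strand-specific DNBSEQ mRNA kind. GRCz11 and featureCounts 2.0.3 are named in the submitters' processing notes. Neither aligner nor annotation nor strand setting is given in the sources used here, so reads of overlapping or antisense genes cannot be told apart from those of the gene named.

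The members and gene lists were chosen with earlier results of these data known. Symbols came from a table that names 29201 of the 32520 IDs, many without a paralog suffix: 7 of the 10 member symbols matched exactly with case ignored, 2 by a synonym and 1 by its stem, giving 14 IDs. Per-gene tests used edgeR 4.0.16 in R 4.3.3 (quasi-likelihood test, robust, TMM scaling, filterByExpr, 1 fit over all genotypes, 22234 genes, Benjamini-Hochberg adjustment, threshold 0.05), and the code was tested on simulated data. Log2 ratios within a library were compared by exact two-sided permutation tests. Intervals are exact binomial ones and, like the floor of 3 counts, cover counting error only. Beside the members, the text names up to 4 genes of each of 7 lists, those with the smallest adjusted p against WT, and the 3 genes most like nppa, myl7 and myh6, of which 1 for myl7 is not reported here. Marker lists of 11 tissues were summed in CPM, and those in the text are the ones for heart muscle, liver, gut, blood, endothelium, neurons and skeletal muscle. Alternatives were other scaling factors and filters, DESeq2 1.42.0, limma-voom (limma 3.58.1), a fit without robust estimation, fits on the compared genotypes alone, the replicate number as a block, a pseudocount of 0.5 for the ratios and each library left out in turn. Leaving out WT replicates 1 and 2 together was added after seeing the data. No 2 libraries of a genotype agreed within sampling noise. Protein and promoter sequences were not used here.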

Additional observations from a re-analysis of the deposited data

Results flagged for a closer look

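Single libraries stood far from the other 4 of their genotype in 6 of 68 genotype groups examined, where chance gives about 1 in 20. For atp2a2a these were DKO replicate 3, the highest at 32.6 CPM, and WT replicate 5, the lowest at 25.2 CPM, which are the libraries through which DKO and WT overlap. For ENSDARG00000052708, listed as TNNI1, DKO replicate 1 was the highest at 11.0 CPM. For ENSDARG00000000474, also listed as TNNI1, ALDH3A1KO replicate 5 was the lowest at 0.0600 CPM and WT replicate 5 the highest at 0.396 CPM, on 2 and 16 counts. The log2 ratio of the lower-case myh6 row to the MYH7 row was lowest in ALDH3A1KO replicate 5, at -5.77, where myh6 had 3 counts.

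The effect of the aldh3a1 knockout differed between glo1 knockout and glo1 wild-type larvae in 7 gene IDs by the interaction term of the edgeR fit. It was 1.96 for nppa, 0.82 for myl7, 0.96 for atp2a2a, 0.85 for ENSDARG00000079782, 0.60 for ENSDARG00000100694, 0.30 for ENSDARG00000079564 and 2.36 for ENSDARG00000114031, each on the log2 scale. Of all tested genes, 35.6% were called by this term, and 18.7% were called above 0. Without WT replicates 1 and 2 it called 4 IDs, where 26.8% of all tested genes were called. The calls of myl7, ENSDARG00000079782 and ENSDARG00000079564 were lost there. For nppa the change was -1.91 for ALDH3A1KO against WT and 0.05 for DKO against GLO1KO (SE 0.26).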

How the results depend on the processing

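Over the alternatives, 1637 of 1764 single-gene and ratio values kept their direction and their side of the threshold, and 40 turned in direction, none of which passed in the fit described. The calls of nppa and atp2a2a against WT held in all 21 alternatives of each genotype. With library totals alone, which lowers the median log2 fold change of all genes to -0.14 in DKO against WT, 8 members fell there. The number of all tested genes that fell with that scaling is given above, beside the chamber identity genes. With the same scaling ENSDARG00000079564 turned to -0.090 in DKO and -0.100 in GLO1KO against WT, and myl7 to -0.039 in DKO against GLO1KO. In GLO1KO against WT, ENSDARG00000079564 was -0.018 with upper-quartile factors, -0.00097 with no filter and -0.0069 with a filter of 1 CPM in 5 libraries. With limma-voom, 1 member passed in DKO against GLO1KO, nkx2.5 was 0.031 in ALDH3A1KO and ENSDARG00000020610 0.028 in GLO1KO against WT.

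Without WT replicates 1 and 2 the members called were 2 in DKO, 6 in ALDH3A1KO and 4 in the interaction. Of all tested genes, 40.9%, 53.1% and 26.8% were called there, and 4447 genes were called in GLO1KO against WT. The values that turned were ENSDARG00000079782 in DKO (0.083), nkx2.5 in ALDH3A1KO (0.42), ENSDARG00000020610 (0.20) and ENSDARG00000052708 (0.12) in GLO1KO, and ENSDARG00000020610 (-0.067), nkx2.5 (-0.10) and hand2 (-0.020) in the interaction. The cause was not tested.

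With 1 library left out, members called ranged from 3 to 6 in DKO against WT, and all genes called there from 10175 to 11203. In DKO against GLO1KO members called ranged from 0 to 1, and all genes called from 1302 to 2271. The nppa to myl7 ratio ranged from -0.78 to -0.59 in DKO, -1.28 to -1.02 in ALDH3A1KO and -0.90 to -0.68 in GLO1KO against WT. These did not pass, since 4 against 5 libraries allow no exact permutation p under 0.0159 before adjustment. It ranged from -0.023 to 0.20 in DKO against GLO1KO, and the myh6 to MYH7 ratio from -0.42 to 0.021 in DKO against WT. Other ranges that crossed 0 were, against WT, those of ENSDARG00000079564 (-0.028 to 0.025), ENSDARG00000052708 (-0.11 to 0.052) and ENSDARG00000020610 (-0.14 to 0.061) in GLO1KO and nkx2.5 (-0.29 to 0.089) in ALDH3A1KO, and in DKO against GLO1KO hand2 (-0.16 to 0.042), myl7 (-0.046 to 0.14), nppa (-0.052 to 0.34) and atp2a2a (-0.0096 to 0.16).

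Pairing of the libraries by replicate number was mixed. Correlations of same-numbered libraries ran from -0.35 to 0.41. Their mean was 0.13 for WT with ALDH3A1KO, 0.06 for WT with DKO and -0.01 for WT with GLO1KO. For libraries of other numbers it was -0.03, -0.02 and 0.00. Among the knockouts the same-number mean was 0.00 for ALDH3A1KO with DKO, -0.02 for ALDH3A1KO with GLO1KO and -0.10 for GLO1KO with DKO. With the replicate number as a block, 5 members were called in DKO, 9 in ALDH3A1KO and 4 in GLO1KO against WT. Without the block, 50.3%, 61.3% and 32.8% of all tested genes were called in these comparisons. The share of all genes called with the block is not given here, so these member counts are not read as a result. Sign-flips of the paired nppa to myl7 ratios, at -0.70, -1.17 and -0.80, cannot pass (smallest exact p 0.0625). The nppb ratio was dropped because 2 libraries had no nppb counts. Counts of 0 to 42 a library limit what can be seen of nppb, nkx2.5, the lower-case myh6 row and nppa in the knockouts.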
